A study of Mus musculus with 18 samples.

Results

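Chemokines are small secreted proteins that guide the movement of leukocytes. The expression of 10 chemokine genes, Ccl2, Ccl3, Ccl4, Ccl6, Ccl7, Ccl8, Ccl9, Cxcl1, Cxcl12 and Pf4, was followed through the injury response of the mouse carotid artery. The genes were taken by their symbols, and all 10 were found among the 35655 genes of the count table and passed the filter on low counts. The values are from 18 libraries of WT mice of the C57/BL6 strain, and no group carried a further allele or agent. The carotid was injured with a wire, and the study's methods give male mice of 11 weeks at the operation and free access to chow. Day 0, labelled as taken before injury, is held by 4 libraries, days 7 and 21 after injury by 4 each, and days 14 and 28 by 3 each. The methods give the left carotid as the injured one and the right as its control. The labels do not say whether the day 0 vessels are such controls. Of the day 0 libraries, 3 share a number in their labels with a day 21 library, and what it stands for is not stated. Frozen sections were cut by laser up to the outer elastic lamina, with the neointima, up to 70 sections were collected for a library, and their RNA was read by MACE, which sequences the 3′ ends of transcripts.

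Totals were between 440675 and 878310 counts per library, and a count of 3, the floor used here, corresponds to 3.55 to 6.98 counts per 1000000 counts (CPM) depending on the library. CPM were scaled by each library's TMM-normalized total over the 10312 genes tested. Of the 40 values of the 10 genes on day 0, 21 were at 0 counts, against 1 of 40 on day 7, 2 of 30 on day 14, 2 of 40 on day 21 and 13 of 30 on day 28. The study calls the samples pooled, and the labels do not say which libraries came from separate mice, so the p-values measure the spread between these libraries. Each library holds the RNA of a mixed tissue, in which more cells of a type and more RNA per cell cannot be told apart.

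Chemokines are named for the spacing of their first conserved cysteines. In CC chemokines (Ccl genes) the 2 cysteines are adjacent, and in CXC chemokines (Cxcl genes and Pf4) 1 other residue lies between them. They bind G protein-coupled receptors on leukocytes and are held on heparan sulphate of the vessel wall, where they form the gradients that recruit monocytes and neutrophils to injured tissue. Ccl2 and Ccl7 act on Ccr2 of inflammatory monocytes, Ccl3, Ccl6 and Ccl9 on Ccr1, Cxcl1 on Cxcr2 of neutrophils, and Cxcl12 on Cxcr4 and the atypical receptor Ackr3. Pf4 is the platelet factor 4 of platelet granules, and is also expressed by macrophages.

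The spacing can be read from the coding sequence. The coding bases of GENCODE's canonical transcripts around these cysteines are shown for 9 of the genes on GRCm39, 5′ to 3′ on the coding strand, since they divide the genes into the classes by which the results are ordered. Capitals mark the codons of the first 2 conserved cysteines.
Ccl2: gccccactcaccTGCTGCtactcattc
Ccl7: aatgcatccacaTGCTGCtatgtcaag
Ccl8: gctccagtcaccTGCTGCtttcatgta
Ccl4: cctcccacttccTGCTGTttctcttac
Ccl6: acttcttcagacTGCTGCttctcttat
Ccl9: gactcttcagatTGCTGCctgtcctat
Cxcl1: aatgagctgcgcTGTcagTGCctgcagacc
Cxcl12: ctgagctaccgaTGCcccTGCcggttcttc
Pf4: ggagatcttagcTGTgtgTGTgtgaagacc
In the 6 Ccl genes shown the capitals run on without a break, and in Cxcl1, Cxcl12 and Pf4 a codon separates them. In Cxcl1, and not in Cxcl12 or Pf4, the codons just before the first cysteine encode Glu-Leu-Arg, the motif of the CXC chemokines that attract neutrophils. The stretches lie at chr11:81927320-81927346 for Ccl2, chr11:81937352-81937378 for Ccl7, chr11:82006870-82006896 for Ccl8, chr11:83554296-83554322 for Ccl4, chr11:83480203-83480229 for Ccl6, chr11:83466743-83466769 for Ccl9, chr5:91039343-91039372 for Cxcl1, chr6:117148457-117148486 for Cxcl12 and chr5:90920791-90920820 for Pf4. Each lies within 1 exon, which is exon 3 of the transcript in Ccl6 and Ccl9 and exon 2 in the others.

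On GRCm39 the 7 Ccl genes lie on chromosome 11. Ccl2 (81926397 to 81928279 on the plus strand), Ccl7 (81936532 to 81938351 on the plus strand) and Ccl8 (82006007 to 82007625 on the plus strand) form a group in which 8.3 kb separate the first pair and 67.7 kb the second. After a gap of 1456.1 kb follow Ccl9 (83463745 to 83473161 on the minus strand), Ccl6 (83478708 to 83483913 on the minus strand), Ccl3 (83538670 to 83540191 on the minus strand) and Ccl4 (83553383 to 83555509 on the plus strand). Pf4 (90918479 to 90922110 on the plus strand) and Cxcl1 (91039094 to 91040974 on the plus strand) lie 117.0 kb apart on chromosome 5, and Cxcl12 (117144945 to 117158328 on the plus strand) is on chromosome 6. All are protein-coding. No exon of the 10 genes overlaps another gene on the same strand, and Ccl3 overlaps the lncRNA Gm53692 on the other strand, from which its reads cannot be told apart since the strand setting is not given in the sources used here. In the last 400 bases of the canonical transcripts, near the 3′ end that MACE reads, 11.4% of the stretches of 31 bases of Ccl9 and 4.87% of those of Ccl6 also occurred in transcripts of other genes. None did in the other 8 genes.

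All 10 genes had their highest mean on day 7. Compared with day 0, 9 of the 10 were higher on day 7, at an adjusted p under 0.05 in edgeR's quasi-likelihood test, against 11.3% of all genes tested that were higher. Ccl4 was the exception. Their median log2 fold change was 4.65, or 4.14 with 3 genes that were at 0 on day 0 taken at their lower bound, and that of all genes tested was 0.07. On day 14, 4 genes were higher than on day 0 (Ccl2, Ccl6, Ccl7 and Cxcl12), against 4.80% of all genes. On day 21 there were 3 (Ccl2, Ccl6 and Cxcl12), against 5.92%, and on day 28 only Cxcl12 was called, against 0.970%. No gene of the 10 was called lower than on day 0 on any day by edgeR or by DESeq2, and 0 were at an unadjusted p under 0.05. On day 14 the number of genes called fell to 2 when day 0 replicate 3 was left out and to 1 for day 14 replicate 2. The comparisons with day 0 share its 4 libraries. The 10 genes were chosen with earlier results of these data known. Ccl2, Ccl3 and Ccl7, at 0 counts on day 0, could pass the filter only through later libraries. The shares of all genes are thus no neutral reference for these counts.

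**Figure D1:**
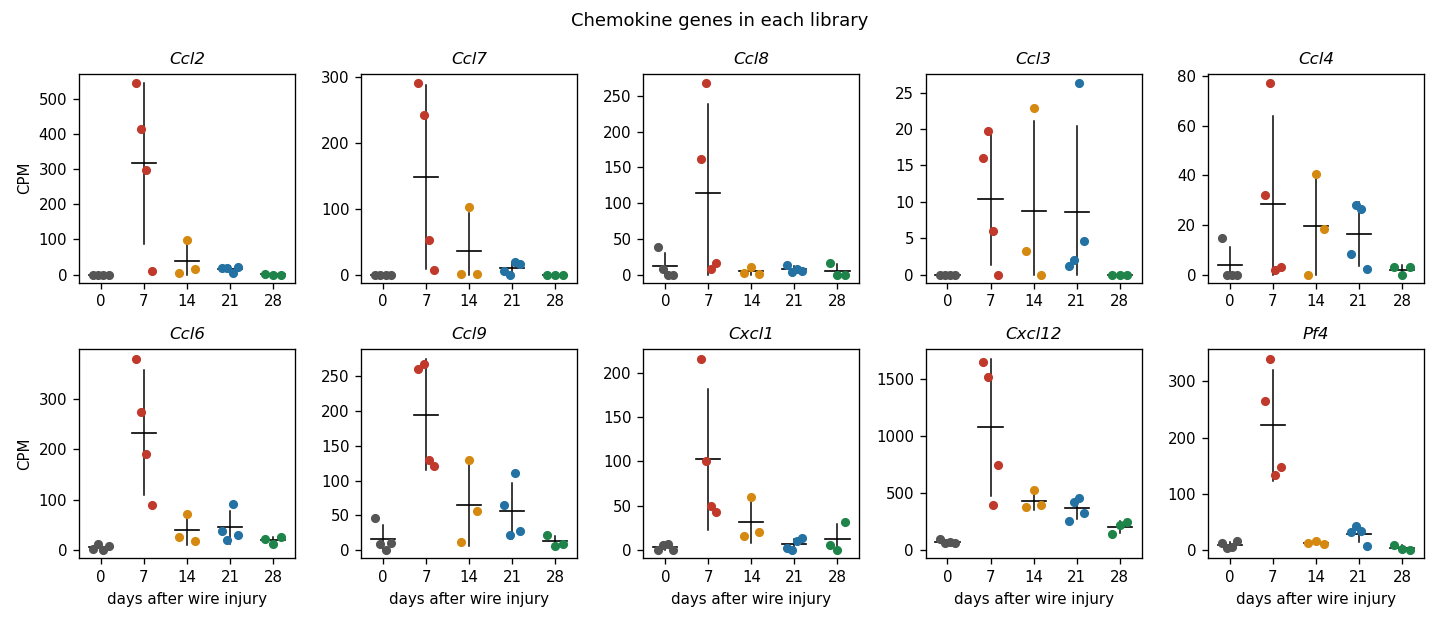
CPM of the 10 chemokine genes (one panel per gene, linear axes that differ between panels) against days after wire injury. Points are libraries, horizontal bars means and vertical lines 1 SD, cut at 0. The highest library is a day 7 library in 9 of the 10 genes, the exception being Ccl3, whose highest value is on day 21.

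Ccl2, the main ligand that draws inflammatory monocytes into tissue, was not detected before injury, with 0 counts in all 4 day 0 libraries. It had 545, 415, 297 and 9.69 CPM in the 4 day 7 libraries, 3.20, 98.8 and 17.0 CPM on day 14 and 17.7, 18.2, 3.29 and 20.9 CPM on day 21. On day 28, 1 library held 2 counts (2.87 CPM) and the other two none. Every library of days 7, 14 and 21 was thus above every library of day 0, but replicate 4 of day 7 lay within the range of days 14 and 21. Replicate 1 of day 14 and replicate 3 of day 21 held 2 counts each, which is under the floor. Ccl2 was at least 70.8-fold higher on day 7 than on day 0 (adjusted p = 1.7e-05), at least 8.87-fold on day 14 (adjusted p = 0.00785) and at least 3.36-fold on day 21 (adjusted p = 0.0423), all from edgeR. The day 14 call was lost without replicate 2 of that day (adjusted p = 0.142, lowest and highest of the alternatives 1.24e-17 to 0.346). The day 21 call was lost in 9 of 25 alternatives (range of the adjusted p 1.13e-09 to 0.318). Among them was the limma fit in which the number in the labels is a block (adjusted p = 0.318). Against day 7 the log2 fold change, with its standard error (SE), was -3.02 (SE 0.87, adjusted p = 0.0905) on day 14 and -4.40 (SE 0.86, adjusted p = 0.00246) on day 21. On day 28 the ratio to day 7 was 0.00336 (95% exact interval 0.000406 to 0.0122, counting error only, adjusted p = 0.000396 from edgeR).

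Ccl7, the neighbour of Ccl2 and a further ligand of Ccr2, had 0 counts in all libraries of days 0 and 28. Its day 7 libraries held 290.2, 243, 51.8 and 6.46 CPM, those of day 14 1.60, 102 and 1.30 CPM and those of day 21 4.73, 0, 19.7 and 16.3 CPM. Replicate 2 of day 14 lay within the range of day 7, and the other two of that day were below every day 7 library and under the floor. Ccl7 was at least 33.0-fold higher on day 7 than on day 0 (adjusted p = 0.000724) and at least 7.85-fold higher on day 14 (adjusted p = 0.0286). The day 14 call rested on that replicate, and the adjusted p was 0.757 when it was left out (lowest and highest of the alternatives 3.97e-12 to 0.757), and it was lost in 7 of 25 alternatives. On day 28 the level was at least 29.8-fold lower than on day 7 (adjusted p = 0.00456). The log2 fold change of day 21 against day 7, -3.86 (SE 1.12, adjusted p = 0.0397), lost its call in 9 of 25 alternatives (range of the adjusted p 3.82e-10 to 0.216).

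Ccl8, a CC chemokine of the same group, was already present before injury in 2 libraries. Its values were 38.7, 7.17, 0 and 0 CPM on day 0 and 162, 268, 7.97 and 16.1 CPM on day 7. Replicates 1 and 2 of day 7 lay above every day 0 library, and replicates 3 and 4 within the day 0 range. Ccl8 had a log2 fold change of 3.31 (SE 1.05, adjusted p = 0.0263), and the call was lost in 7 of 25 alternatives, with an adjusted p of 0.192 without replicate 2 of day 7 and 0.123 in DESeq2 (range 4.89e-07 to 0.192). With single libraries left out the log2 fold change lay between 2.43, without day 7 replicate 2, and 5.36, without day 0 replicate 1. Later libraries held 1.30 to 10.6 CPM on day 14, 4.04 to 13.0 CPM on day 21 and 0 to 15.8 CPM on day 28, none of them above the highest day 0 library. Against day 7, Ccl8 was lower on day 21, with a log2 fold change of -3.81 (SE 1.11, adjusted p = 0.0337), and on day 28, with -4.32 (SE 1.29, adjusted p = 0.0245). Without day 28 replicate 1, which holds all the counts of that day, the fitted value was -9.17, which depends on the prior count since 0 counts were left, and without day 7 replicate 2 it was -3.47. These calls were lost in 9 and 6 of 25 alternatives (adjusted p up to 0.23 and 0.123).

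Ccl3 and Ccl4, which encode the macrophage inflammatory proteins 1 alpha and 1 beta, stayed low. Ccl3 had no count on days 0 and 28. It reached 16.0, 19.8, 5.98 and 0 CPM on day 7, 3.20, 22.9 and 0 CPM on day 14 and 1.18, 2.02, 26.3 and 4.65 CPM on day 21. These 3 days overlapped with each other, and the means of days 14 and 21 were 83.4% and 81.8% of that of day 7. The rise on day 7, of at least 2.34-fold (adjusted p = 0.0335), rested on 23 counts in 3 libraries and was lost in 8 of 25 alternatives (range of the adjusted p 0.00644 to 0.0825), among them each fit without a day 0 library and those without replicate 1 or 2 of day 7. On days 14 and 21 it was not called (adjusted p = 0.109 and 0.0727), though all 4 day 21 libraries held a count.

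Ccl4 was the gene of the 10 that passed no comparison. Its values were 14.9, 0, 0 and 0 CPM on day 0, 32.1, 77.3, 1.99 and 3.23 CPM on day 7, 0, 40.6 and 18.3 CPM on day 14, 8.28, 28.3, 26.3 and 2.33 CPM on day 21 and 2.87, 0 and 3.20 CPM on day 28. The day 7 libraries spanned 38.8-fold, and all groups overlapped. The log2 fold change of day 7 against day 0 was 2.93 (SE 1.27, adjusted p = 0.113). With single libraries left out it lay between 1.74, without day 7 replicate 2, and 7.19, without day 0 replicate 1, a fitted value that depends on the prior count since day 0 then had 0 counts. It was past the threshold in 2 alternatives, without day 0 replicate 1 (adjusted p = 0.00987), the only day 0 library with counts, and without the filter on low counts (adjusted p = 0.0117), over a range of 0.00987 to 0.473.

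Ccl6 and Ccl9, ligands of Ccr1 found in rodents, rose on day 7 in every library. Ccl6 had 1.49, 13.2, 0 and 9.19 CPM on day 0 and 379, 273, 191 and 88.8 CPM on day 7, and the groups did not overlap. The log2 fold change was 5.17 (SE 0.66, adjusted p = 3.55e-06), a call that held in all 25 alternatives (adjusted p up to 0.000254). Ccl6 remained above day 0 on day 14, with 27.2, 72.4 and 18.3 CPM (log2 fold change 2.59, SE 0.70, adjusted p = 0.0236), and on day 21, with 39.0, 20.2, 92.1 and 30.2 CPM (log2 fold change 2.83, SE 0.66, adjusted p = 0.00736). The day 14 call was lost without replicate 2 of that day (log2 fold change 1.82, adjusted p = 0.304) and in 6 of 25 alternatives in all (range 6.88e-06 to 0.304). On day 28, 21.5, 11.6 and 25.6 CPM were left, which was not called against day 0 (adjusted p = 0.301). Compared with day 7, Ccl6 was lower on day 14, with a log2 fold change of -2.59 (SE 0.61, adjusted p = 0.0261), on day 21, with -2.34 (SE 0.54, adjusted p = 0.00748), and on day 28, with -3.56 (SE 0.66, adjusted p = 0.000681). The first of these was lost in 5 of 25 alternatives (adjusted p up to 0.221), and the second in 1, without day 7 replicate 1 (adjusted p = 0.0519).

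Ccl9 had 46.2, 9.56, 0 and 10.5 CPM on day 0 and 260.0, 268, 129.6 and 121 CPM on day 7, where all libraries were above those of day 0. This gave a log2 fold change of 3.56 (SE 0.71, adjusted p = 0.000654), and the call held in all 25 alternatives. Without day 0 replicate 1, the highest of that day, the log2 fold change was 4.78. On day 14 the libraries differed widely, at 11.2, 129 and 56.1 CPM, and replicate 2 lay within the range of day 7. Day 21 held 65.1, 22.2, 110.2 and 27.9 CPM. Neither day was called against day 0 (adjusted p = 0.126 and 0.114), and their ranges overlapped with those of day 0. Without day 0 replicate 1 both were called, day 14 with a log2 fold change of 3.19 (adjusted p = 0.0174) and day 21 with 3.02 (adjusted p = 0.0167). Day 14 was also called without its replicate 1 (adjusted p = 0.0369), and both days without the filter on low counts (adjusted p = 0.000185 and 0.000453), while without replicate 2 of day 14 its log2 fold change was 1.06. The adjusted p ran from 0.000185 to 0.753 on day 14 and from 0.000453 to 0.365 on day 21. On day 28 Ccl9 was at 21.5, 6.62 and 9.59 CPM, within the range of day 0, and lower than on day 7 with a log2 fold change of -3.91 (SE 0.82, adjusted p = 0.00216).

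Cxcl1, the Glu-Leu-Arg chemokine of the set and a ligand of the neutrophil receptor Cxcr2, had 0, 5.98, 7.45 and 0 CPM on day 0 and 215, 101, 49.8 and 43.6 CPM on day 7. All day 7 libraries were above all day 0 libraries (log2 fold change 4.84, SE 0.95, adjusted p = 0.000612), and the call held in all 25 alternatives. On day 14 Cxcl1 was at 16.0, 60.0 and 20.9 CPM, again above every day 0 library, but its adjusted p was 0.0562 (range over alternatives 0.000143 to 0.385). Day 21 libraries held 2.37, 0, 9.87 and 14.0 CPM and day 28 libraries 5.74, 0 and 32.0 CPM. Both days lay below every day 7 library, with log2 fold changes of -4.01 (SE 0.91, adjusted p = 0.00681) and -3.01 (SE 0.93, adjusted p = 0.0307). The day 28 value ran from -5.00, without day 28 replicate 3, to -2.29, without day 7 replicate 1. Its call was lost in 5 of 25 alternatives (adjusted p up to 0.171), and that of day 21 in 1, without day 7 replicate 1 (adjusted p = 0.0594).

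Cxcl12 is a homeostatic chemokine, made by stromal and vascular cells and known for retaining and recruiting progenitor cells. It was detected in all 18 libraries. The day 0 libraries held 101, 65.7, 68.6 and 66.9 CPM, and those of day 7 1652, 1517, 399 and 747 CPM. Its day 14 values were 378, 528 and 393 CPM, those of day 21 253, 426, 460.5 and 328 CPM and those of day 28 144, 225 and 246 CPM. The means were 75.6 ± 17.1 CPM (n = 4, SD) on day 0, 1079 ± 604 CPM (n = 4, SD) on day 7 and 205 ± 54.1 CPM (n = 3, SD) on day 28. Every library after injury was above every day 0 library, and Cxcl12 was the only gene of the 10 for which this held on each later day. It had 220 counts on day 0, against 0 to 47 in the other genes. The share of all genes tested with this trait was not determined, so it cannot be called particular to Cxcl12. The log2 fold changes against day 0 were 3.83 (SE 0.36, adjusted p = 1e-07) on day 7, 2.52 (SE 0.36, adjusted p = 8.68e-05) on day 14, 2.28 (SE 0.35, adjusted p = 0.00015) on day 21 and 1.44 (SE 0.36, adjusted p = 0.0453) on day 28. The first 3 calls held in all 25 alternatives. The day 28 call was lost in 13 of them, 11 of which left out a library. Over all 25 the adjusted p ran from 0.000248 to 0.16 and the log2 fold change from 1.28 to 1.64. Against day 7, Cxcl12 was lower on day 21 (log2 fold change -1.56, SE 0.33, adjusted p = 0.00358) and day 28 (log2 fold change -2.40, SE 0.38, adjusted p = 0.000156), and the difference on day 14 was not past the threshold (log2 fold change -1.32, SE 0.36, adjusted p = 0.0587), though it was in 4 of 25 alternatives. These were DESeq2 (adjusted p = 0.00681), no filter on low counts (0.000793) and the fits without day 7 replicate 3 (0.014) or 4 (0.0277), over a range of 0.000793 to 0.385. The mean of day 28 was 19.0% of that of day 7, and that of day 0 7.01%.

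Pf4 was high on day 7 and near its day 0 level on day 14. It had 13.4, 4.78, 5.96 and 15.7 CPM on day 0, 265, 339.6, 134 and 149 CPM on day 7 and 12.8, 15.9 and 10.4 CPM on day 14, where 2 of 3 libraries lay within the day 0 range. The day 7 mean was 222 ± 98.2 CPM (n = 4, SD) and that of day 14 13.0 ± 2.73 CPM (n = 3, SD). The log2 fold change was 4.46 (SE 0.54, adjusted p = 2.33e-06) on day 7 and 0.37 (SE 0.63, adjusted p = 0.864) on day 14. Against day 7, Pf4 was lower on day 14 with a log2 fold change of -4.08 (SE 0.60, adjusted p = 0.000894), and all libraries of days 14, 21 and 28 lay below all those of day 7. Day 21 held 33.1, 42.4, 34.5 and 6.98 CPM, which was not called against day 0 (log2 fold change 1.56, SE 0.55, adjusted p = 0.077, range of the adjusted p 0.017 to 0.208), and day 28 10.1, 1.65 and 0 CPM. The calls of day 7 against day 0 and of days 14, 21 and 28 against day 7 held in all 25 alternatives. The sum of 9 platelet markers, most of it from 1 gene, was 49.2 to 96.8 CPM on day 0 and 46.7 to 81.7 CPM on day 7, and Gp1ba, Gp9, Gp6 and Tubb1 had 0 counts in all libraries of both days. Gp1bb, which made up most of that sum and may hold reads of Septin5 and Gm49601, whose exons it overlaps on the same strand, was the only one tested, with 46.3, 28.8, 41.9 and 58.1 CPM on day 7 and 58.1, 90.9, 49.2 and 93.2 CPM on day 0 (adjusted p = 0.121). The other detected markers of the list, none of which passed the filter, were higher in their means on day 7. Ppbp, another chemokine of platelet granules, had no count on day 0 and 21.4, 12.6, 14.0 and 4.84 CPM on day 7. Itga2b, the platelet integrin subunit, had 0, 4.78, 0 and 0 CPM on day 0 and 3.56, 5.39, 23.9 and 1.61 CPM on day 7, and Clec1b, a platelet receptor, 0, 1.20, 0 and 0 CPM and 0, 0, 1.99 and 8.07 CPM. The part of platelets in the Pf4 values was not tested.

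**Figure D2:**
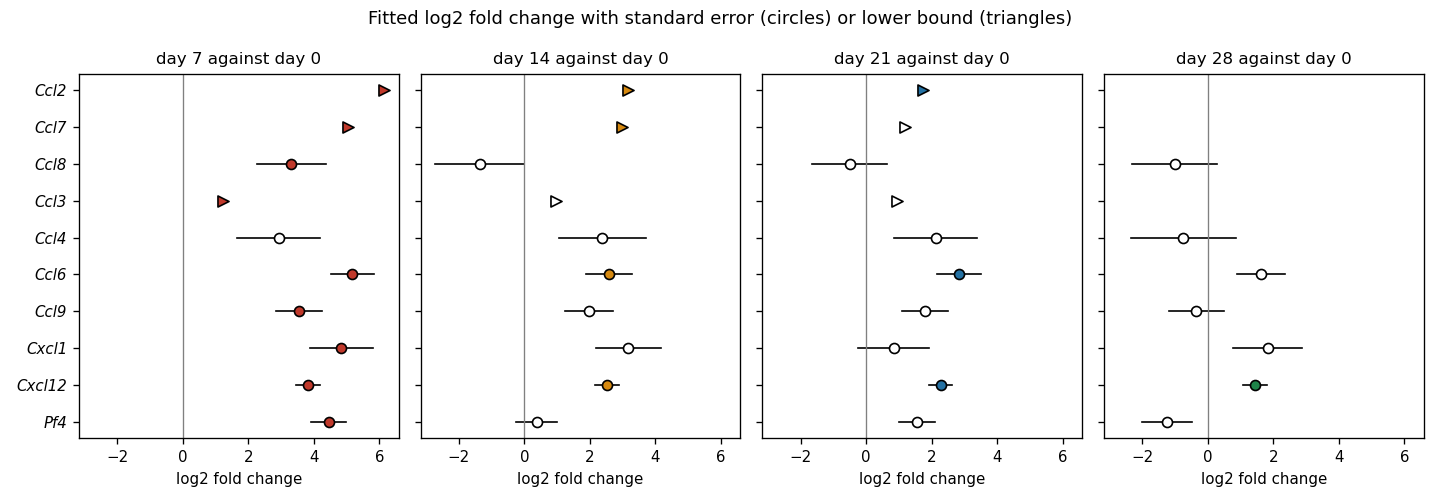
Log2 fold change of each chemokine gene against day 0 (horizontal axis) on days 7, 14, 21 and 28 (panels). Circles are edgeR's fitted values with 1 standard error (SE), triangles are lower bounds where day 0 had no count, filled symbols passed an adjusted p under 0.05, and genes with at most 3 counts in every library of both days have no symbol. Filled symbols fall from 9 on day 7 to 4, 3 and 1 on the later days.

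Compared directly with day 7, 2 of the 10 genes were lower on day 14 (Ccl6 and Pf4), against 0.330% of all genes tested, and the number was 1 without day 7 replicate 1, day 7 replicate 2, day 14 replicate 1 or day 14 replicate 3, 4 without day 14 replicate 2 and 5 without day 7 replicate 4. On day 21, 7 were lower (Ccl2, Ccl6, Ccl7, Ccl8, Cxcl1, Cxcl12 and Pf4), against 3.23% of all genes, and 3 without day 7 replicate 1. On day 28, 8 were lower, all but Ccl3 and Ccl4, against 8.05% of all genes. No gene of the 10 was called higher than on day 7 by edgeR or by DESeq2, and 0 were at an unadjusted p under 0.05. These comparisons share the 4 day 7 libraries. The median log2 fold change of the 10 genes against day 7 was -1.89 on day 14, -2.61 on day 21 and -4.11 on day 28, or -3.79 with 2 genes at their bound. That of all genes tested was between -0.07 and 0.01. When the 5 days are put in the order of their means for each gene, the neighbouring days whose ranges did not overlap were days 21 and 28 for Ccl2 and Cxcl12, days 21 and 0 for Ccl3, days 28 and 0 for Cxcl12 and days 7 and 21 for Pf4.

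The day 7 libraries differed among themselves in a like way for all 10 genes. Replicates 1 and 2 were both above replicates 3 and 4 in each gene, a pattern noticed in the values and not tested. The share of all genes tested with this order was not determined, so it cannot be called particular to the 10 genes. The highest library was 56.2-fold above the lowest for Ccl2, 45.0-fold for Ccl7, 38.8-fold for Ccl4 and 33.6-fold for Ccl8. For the others with counts in all 4 libraries it was between 2.21-fold (Ccl9) and 4.94-fold (Cxcl1). Replicate 4 was lowest in 6 genes and replicate 3 in the other 4. The summed macrophage markers of replicates 1 to 4 were 4464, 6687, 4918 and 5536 CPM, which does not follow this order, and the neutrophil markers were 794, 372, 594 and 228 CPM. Endothelial markers were at 545, 686, 1830.0 and 1800.1 CPM, so that replicates 3 and 4 were higher, and smooth muscle markers were highest in replicate 4, at 7071 CPM. The part of these cell types in the spread was not tested.

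**Figure D3:**
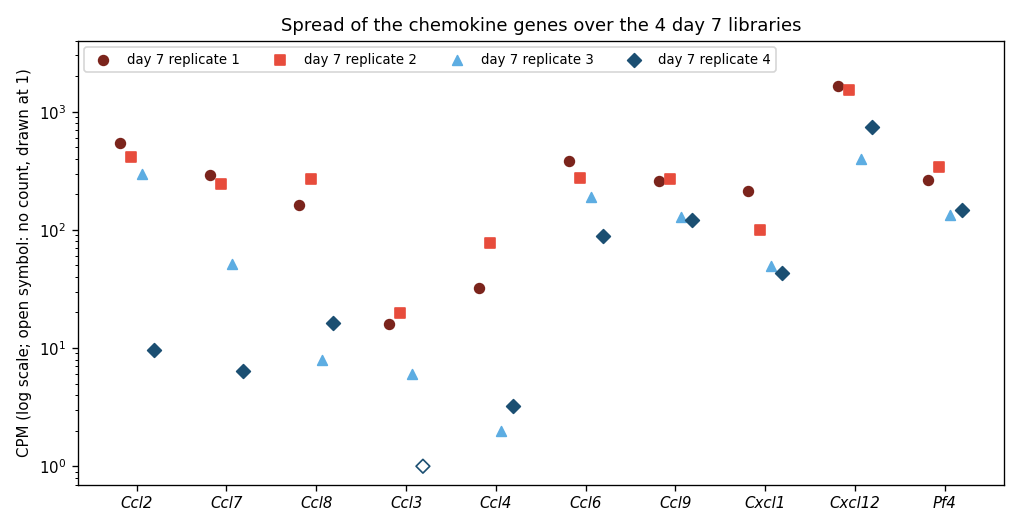
CPM (log axis) of the 10 chemokine genes in the 4 day 7 libraries, each with its own symbol. The open symbol is a library without a count, drawn at 1. Replicates 1 and 2 lie above replicates 3 and 4 in each gene, and among the genes with counts in all 4 libraries the range is widest for Ccl2, Ccl7, Ccl4 and Ccl8.

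Over the 18 libraries, log2 CPM (prior count 2) of the 45 pairs of the 10 genes had Pearson correlations between 0.409 (Ccl4 and Cxcl1) and 0.907 (Ccl2 and Ccl7), with a median of 0.732. The libraries share the days, so these values describe the common time course. Among all other genes tested, the most alike were Uhrf1 for Ccl2 (Pearson's r = 0.956), Slfn4 for Ccl3 (0.935), Ccl12 for Ccl4 (0.858), Mrc1 for Ccl6 (0.911) and Il1b for Ccl7 (0.959). They were Ckap2 for Ccl8 (0.827), Fcgr2b for Ccl9 (0.932), Bst2 for Cxcl1 (0.884) and Pgap6 for Pf4 (0.89). For Cxcl12, Gm49339, tagged as a readthrough gene in GENCODE, came first (0.947), and Vcam1, an adhesion molecule of activated vessel walls, second (0.943). The next for Ccl3 were Il1rn (0.912) and Il1r2 (0.899), an antagonist and a decoy receptor of interleukin 1, and Il1b, the most alike to Ccl7, encodes the cytokine itself.

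Described here are 5 of a list of 19 receptor genes (Ccr1, Ccr2, Cx3cr1, Cxcr2 and Cxcr4). Each of them was tested and was higher on day 7 than on day 0, as were 11.3% of all genes tested. Ccr1, the receptor of Ccl6 and Ccl9, rose from 8.93, 0, 0 and 1.31 CPM to 62.3, 50.3, 41.9 and 16.1 CPM on day 7 (log2 fold change 4.01, SE 1.24, adjusted p = 0.0219). Ccr2, the receptor of Ccl2 and Ccl7, had 52.1, 0, 1.49 and 0 CPM on day 0 and 164, 133, 171 and 27.4 CPM on day 7 (log2 fold change 3.24, SE 0.94, adjusted p = 0.0147). Replicate 4 of day 7, the lowest in Ccl2 and Ccl7, was also the lowest in Ccr2 and lay within the day 0 range. On days 14, 21 and 28 neither Ccr1 nor Ccr2 was called.

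Cxcr4, the signalling receptor of Cxcl12, had 0, 8.37, 0 and 1.31 CPM on day 0 and 24.9, 57.5, 53.8 and 74.3 CPM on day 7. It was higher than on day 0 on day 7 (log2 fold change 4.24, SE 0.85, adjusted p = 0.000699), day 14 (log2 fold change 3.85, SE 0.87, adjusted p = 0.00695) and day 21 (log2 fold change 3.34, SE 0.85, adjusted p = 0.0137), and on day 28, at 4.31, 0 and 4.79 CPM, it was not called (adjusted p = 0.958). Ackr3, the atypical receptor that takes up Cxcl12, went the other way, with 138, 78.9, 173 and 167 CPM on day 0 and 49.9, 55.7, 49.8 and 67.8 CPM on day 7. The groups did not overlap (log2 fold change -1.31, SE 0.34, adjusted p = 0.00625), and 8.53% of all genes tested were lower on that day. On days 14, 21 and 28 Ackr3 was not called (adjusted p = 0.548, 0.0921 and 0.0741). Its means on these days were 97.0, 74.6 and 54.8 CPM, against 55.8 CPM on day 7. All day 28 libraries, at 38.3 to 72.8 CPM, lay below all day 0 libraries. Ccrl2, which binds chemerin without signalling and was the other of 2 atypical receptors tested out of 5, did not pass the threshold (adjusted p = 0.889 on day 7). Cxcr2, the receptor of Cxcl1, had 26.8, 43.0, 99.9 and 31.5 CPM on day 0 and 116, 149, 179 and 42.0 CPM on day 7, with overlap (log2 fold change 1.27, SE 0.45, adjusted p = 0.0463). Cx3cr1, the fractalkine receptor of monocytes, was higher on days 7 (log2 fold change 4.62, SE 0.70, adjusted p = 3.22e-05), 14 (log2 fold change 3.34, SE 0.73, adjusted p = 0.00529) and 21 (log2 fold change 4.02, SE 0.70, adjusted p = 6e-04).

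**Figure D4:**
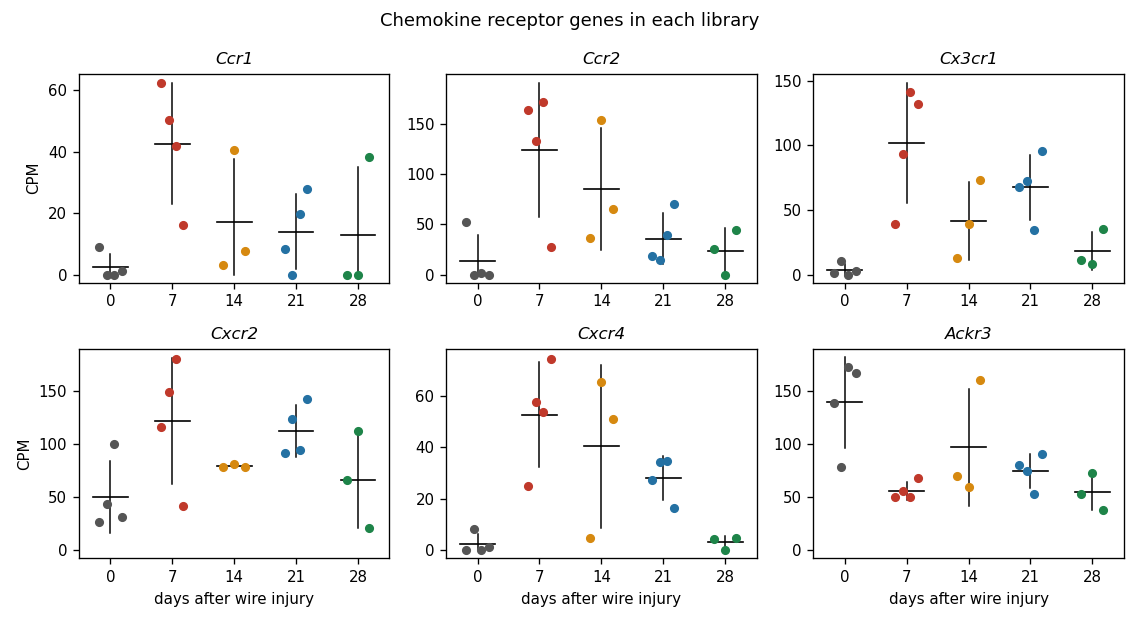
CPM of 5 chemokine receptor genes and the atypical receptor gene Ackr3 against days after wire injury. Points are libraries, bars means and lines 1 SD, cut at 0. In Ccr1, Cx3cr1 and Cxcr4 every day 7 library is above every day 0 library. In Ackr3 every library of days 7 and 28 is below every day 0 library.

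Of 30 other chemokine ligand genes, 10 were tested, and 8 of these were higher on day 7, against 11.3% of all genes tested. On day 0, Cxcl9 had 0 counts in all, Cxcl10 1 and Ccl5, Cxcl2 and Cxcl5 3 each, so these passed the filter through later libraries. The list was also chosen with earlier results known, and the share of all genes is no neutral reference for it. The median log2 fold change of the 10 genes tested was 4.02, and that of all genes tested 0.07. The smallest p belonged to Cxcl16, a transmembrane chemokine, which had 19.4, 10.8, 26.8 and 24.9 CPM on day 0 and 194, 226, 112 and 123 CPM on day 7 (log2 fold change 3.00, SE 0.36, adjusted p = 1.61e-06). Cxcl5, a further Glu-Leu-Arg chemokine, had 1.49, 1.20, 0 and 1.31 CPM on day 0 and 223, 243, 9.97 and 9.69 CPM on day 7, a ratio of 119 (95% exact interval 40.2 to 579, counting error only; adjusted p = 0.00101), and repeated the order of the day 7 libraries described above. Cxcl10, an interferon-induced chemokine, had 146, 187, 71.8 and 6.46 CPM on day 7 and 17.6, 612 and 0 CPM on day 14, of which replicate 2 was the highest of all libraries. Its ratio on day 7 to day 0, where 1 library held a count, was 297 (95% exact interval 52.7 to 11776, counting error only; adjusted p = 0.00194). Cx3cl1, fractalkine, rose with a log2 fold change of 1.72 (SE 0.39, adjusted p = 0.00236). On days 14 and 21, 5 and 3 of the 10 were higher than on day 0, against 4.80% and 5.92% of all genes.

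Of 20 genes that induce chemokine genes, such as cytokines and their receptors, 16 were tested, and 7 were higher on day 7, against 11.3% of all genes. Il1b had 0 counts on day 0 and 283, 235, 102 and 4.84 CPM on day 7, at least 34.9-fold higher (adjusted p = 0.000359). Tnfrsf1a, a receptor of tumour necrosis factor, had a log2 fold change of 1.20 (SE 0.22, adjusted p = 0.000305), Tnfrsf1b of 3.23 (SE 0.71, adjusted p = 0.00172) and Tlr2, a toll-like receptor, of 3.41 (SE 0.72, adjusted p = 0.00127). Among the NF-kappaB genes, Nfkbiz was higher without overlap, with 17.9, 8.37, 2.98 and 22.3 CPM on day 0 and 89.0, 64.7, 59.8 and 24.2 CPM on day 7 (log2 fold change 2.18, SE 0.60, adjusted p = 0.0108). Nfkb1, Rela and Nfkbia were not called (adjusted p = 0.663, 0.33 and 0.596), nor were Nfkb2 (log2 fold change 0.98, SE 0.38, adjusted p = 0.0731) and Relb (log2 fold change 1.13, SE 0.45, adjusted p = 0.0848). Tnf and Il6 did not pass the filter. Tnf was at 1.78 to 11.3 CPM on day 7 and Il6 at 0 to 16.0 CPM.

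Of 22 genes that carry the signal of chemokine receptors, 19 were tested, and 10 were higher on day 7, against 11.3% of all genes. The smallest p-values belonged to the kinase Lyn, with 0, 0, 0 and 1.31 CPM on day 0 and 96.2, 64.7, 85.7 and 43.6 CPM on day 7 (adjusted p = 4.15e-06), to Arrb2, an arrestin that ends receptor signalling (log2 fold change 3.72, SE 0.48, adjusted p = 4.33e-06), and, among others, to the kinase Fgr, at least 10.9-fold higher than on day 0, where it had 0 counts (adjusted p = 7.6e-05). The G protein gene Gnai2, which most cells express, was not called (log2 fold change 0.01, SE 0.21, adjusted p = 0.984). Of 15 genes of proteins that hold or cleave chemokines, 13 were tested, and on day 7 6 were higher and 1 was lower, against 11.3% and 8.53% of all genes. The heparan sulphate carriers Sdc3 and Sdc1 had log2 fold changes of 2.87 (SE 0.33, adjusted p = 8.72e-07) and 2.32 (SE 0.37, adjusted p = 7.05e-05), and the proteases Mmp14 and Mmp2, of which Mmp2 cleaves Cxcl12, of 2.16 (SE 0.38, adjusted p = 0.000199) and 1.20 (SE 0.28, adjusted p = 0.00256). The gene that was lower was Bgn, biglycan (log2 fold change -0.96, SE 0.25, adjusted p = 0.00649).

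Markers of cell types also differed between the days, some of them higher after injury and others lower. On day 7, 11.3% of all genes tested were higher and 8.53% lower than on day 0. All 14 macrophage markers were higher, and their summed level was 111 to 526 CPM on day 0, 4464 to 6687 CPM on day 7, 1179 to 2593 CPM on day 14, 1749.7 to 3522 CPM on day 21 and 778 to 1174 CPM on day 28. Of 10 neutrophil markers 4 were tested and higher on day 7, Cxcr2 among them, with sums of 26.8 to 99.9 CPM on day 0 and 228 to 794 CPM on day 7, and Ly6g, Mpo, Ngp, Camp and Elane were at 0 on day 7. On day 0, Cxcr2 made up most of this sum. The neutrophil genes S100a8 and S100a9, chosen here after their values were seen, were also high in single later libraries. S100a8 had 4.80, 86.5 and 7.83 CPM on day 14, 7.10, 4.04, 242 and 2.33 CPM on day 21 and 0, 0 and 133 CPM on day 28. The high ones were replicate 2 of day 14, replicate 3 of day 21 and replicate 3 of day 28. Replicate 2 of day 14 was the highest of that day for all 10 chemokine genes. Replicate 3 of day 21 was the highest of its day for Ccl3, Ccl6, Ccl7, Ccl9 and Cxcl12. Replicate 3 of day 28 was so for Ccl6, Cxcl1 and Cxcl12, and for Ccl4 with 2 counts, as many as in replicate 1. The share of all genes that were highest in these libraries was not determined. Of 8 smooth muscle markers 7 were tested and all 7 were lower, with sums of 32510.3 to 37494 CPM on day 0, 1526 to 7071 CPM on day 7 and 20210.2 to 28509 CPM on day 28. Of 5 red blood cell genes 4 were higher on day 7 (40.2 to 369 CPM against 164 to 2347 CPM). Of the 8 endothelial markers 3 were higher and 1 lower, and of the 8 fibroblast markers 1 was higher and 6 were lower. No T cell marker passed the filter, and their sum was at most 52.0 CPM in any library. The part of these cells in the rise and fall of the chemokine genes was not tested.

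**Figure D5:**
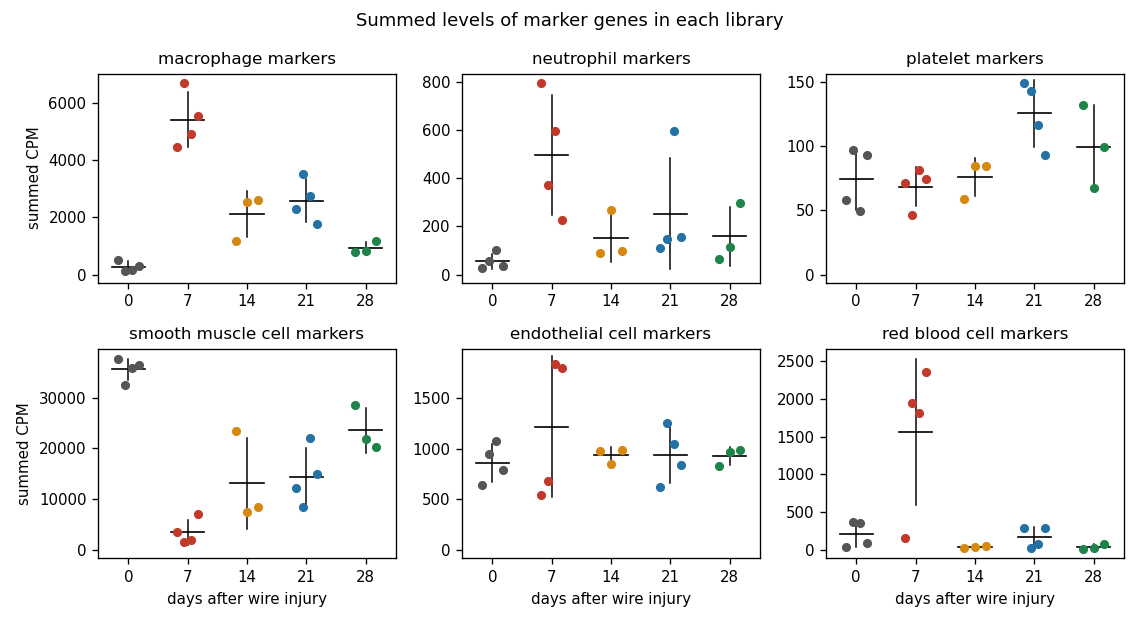
Summed CPM of marker genes of 6 cell types against days after wire injury. Points are libraries, bars means and lines 1 SD, cut at 0. Macrophage markers peak on day 7, where smooth muscle markers are lowest, and the sum of the platelet markers, most of it Gp1bb, overlaps between days 0 and 7.

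Because inflammatory genes are known for certain promoter motifs, the 250 bases before the start of each canonical transcript were searched on both strands for 4 of these motifs. The kappaB consensus of 10 letters was found before Cxcl1 and Ccl9, that is in 2 of the 10 genes, against 7.62% of 21751 protein-coding genes. TATAAA was found before 3 genes (Ccl7, Ccl8 and Ccl9), against 11.9%, TGANTCA, the AP-1 motif, before 2 (Ccl7 and Ccl9), against 6.17%, and GAGGAA, the core of the PU.1 motif, before 3 (Ccl3, Ccl7 and Ccl8), against 22.9%. The stretches with a kappaB match are shown on GRCm39, 5′ to 3′ on the strand of the gene, with the match in capitals.
Cxcl1, chr5:91038844-91039093, plus strand: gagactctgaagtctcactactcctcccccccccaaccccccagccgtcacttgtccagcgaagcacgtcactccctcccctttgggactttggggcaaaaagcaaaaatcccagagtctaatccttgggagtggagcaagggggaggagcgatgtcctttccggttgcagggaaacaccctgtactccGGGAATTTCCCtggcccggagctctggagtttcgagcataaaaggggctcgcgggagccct
Ccl9, chr11:83469468-83469717, minus strand: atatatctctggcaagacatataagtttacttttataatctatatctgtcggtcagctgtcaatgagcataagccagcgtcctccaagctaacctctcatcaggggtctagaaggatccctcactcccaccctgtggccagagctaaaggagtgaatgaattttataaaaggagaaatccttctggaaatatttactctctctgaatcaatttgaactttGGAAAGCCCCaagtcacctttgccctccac
In Cxcl1 2 overlapping matches lie 51 to 61 bases before the start, and in Ccl9 1 lies 21 to 30 bases before it. A match of letters is a description of the sequence, and the data hold no measurement of binding. The other 8 genes had no match in this window, Ccl2 included. The annotated genes Ccl9, Cxcl12 and Pf4 begin further upstream than their canonical transcripts, so their windows lie within the genes.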

How the data were processed

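MACE reads, with PCR duplicates removed by molecular identifiers, were quantified by the authors with Salmon on mm39 (version 1.9.0 per the submitters' processing notes, which also name DESeq2 1.36.0). The annotation release and the use of strand are not given in the sources used here. The deposited values are estimated counts per gene, given as whole numbers, and the normalised table was not used. Of 35655 genes, 17606 had no count in any library. The 10312 genes that passed edgeR's filterByExpr by day entered a single fit over the 18 libraries, grouped by the day in the labels (edgeR 4.0.16, R 4.3.3, TMM normalization, quasi-likelihood F-test, 2-sided, Benjamini-Hochberg adjustment over all genes tested, threshold 0.05). A gene with 0 counts in all libraries of a day has a fold only as a bound, computed from 3 counts per library of that day, and one with 1 to 3 counts a ratio with an exact interval; intervals and floors cover counting error only. The precision is set by the totals of 440675 to 878310 counts and by 3 or 4 libraries per day. Positions and sequences are from GRCm39 with GENCODE M39, the build named mm39. There were 25 alternatives: DESeq2 1.42.0, other scalings, no filter, only the days compared, 2 blocks (1 with limma 3.58.1) and each library left out. The scripts were tested on simulated data. Genes named in the wider lists are up to 4 per list with the smallest p on day 7 among those past the threshold, receptors of the ligands, and those named as not called. Some genes of the lists and 1 sequence are not reported here. The 10 genes and all lists were chosen with earlier results of these data known. Genes at 0 counts on day 0 could pass the filter only through later libraries. For both reasons the shares of all genes set beside the lists are no neutral reference.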

Additional observations from a re-analysis of the deposited data

Results flagged for a closer look

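Within the groups of 4 libraries, 3 single values of the 10 genes stood apart from the others by Dixon's ratio, the gap to the nearest value over the whole range, at its 95% critical value of 0.829. In all, 27 such groups were tested. The critical value holds for normally distributed values, and many values here were 0 counts, so the rate of chance flags is not known. Ccl3 in replicate 3 of day 21 was at 26.3 CPM, with a ratio of 0.862, and the other libraries of that day were between 1.18 and 4.65 CPM. S100a8 and S100a9 were also highest of that day in this library, and their part in the value was not tested. Ccl4 in replicate 1 of day 0 was at 14.9 CPM, with a ratio of 1, since the other day 0 libraries had no count. Cxcl12 in replicate 1 of day 0 was at 101 CPM, with a ratio of 0.921, and the others were between 65.7 and 68.6 CPM. All libraries after injury were above it. Replicate 1 of day 0, which holds the flagged Ccl4 and Cxcl12 values, was also the highest of that day for Ccl8 and Ccl9. Its summed macrophage markers were at 526 CPM, against 111 to 304 CPM in the others of day 0. It was not the highest for Ccl6, Cxcl1 or Pf4, and the part of macrophages in these values was not tested.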

How the results depend on the processing

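Of 1750 fold changes of the 10 genes over the 25 alternatives, 1593 kept their direction and their side of the threshold, 90 lost their call, 44 gained one and 23 changed sign. DESeq2 called 5 genes on day 21 against day 0. Without the filter 7 were called against day 0 on day 14, 7 on day 21, and for day 14 against day 7 also 7. The fit on the compared days alone called 1 on day 14 against day 7. With single libraries left out, between 1 and 6 genes were called against day 0 for day 14 and between 0 and 1 for day 28. Against day 7 there were between 1 and 5 for day 14 and between 3 and 7 for day 21. For the count of 0 on day 28, Cxcl12 was at an unadjusted p under 0.05 in the fit of all libraries.

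The labels do not say whether the replicate numbers pair the libraries, and with 3 or 4 libraries per day the correlations cannot decide it. Deviations from the day means of same-numbered libraries correlated between -0.132 and 0.205 over 33 pairs (median -0.0057). With the replicate block, 2 genes were called against day 0 on day 14 and 0 on day 28, and 4 were lower on day 14 than on day 7. With a block for the number in the labels, which 3 pairs of day 0 and day 21 libraries share (r between -0.00669 and 0.0554), 1 was called on day 14 and 0 on day 28. That fit used limma in place of edgeR, so the block and the change of method cannot be told apart.

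Signs changed only for values not called in the fit of all libraries. The log2 fold change of Ccl8 on day 21 was 0.34 with the replicate block and 1.30 with the number block, and that of Ccl3 on day 21 against day 7 was 0.066 with the replicate block. With the number block Ccl8 was at 0.077 on day 14, Ccl4 at 0.64 and Ccl9 at 0.64 on day 28. With single libraries left out, Ccl8 ranged from -2.81 to 0.68 on day 14, from -0.95 to 1.56 on day 21 and from -5.86 to 1.05 on day 28. On day 28 Ccl4 ranged from -1.19 to 3.51, Ccl9 from -0.99 to 0.87 and Cxcl1 from -0.16 to 2.44. Against day 7, Ccl3 ranged from -2.64 to 0.34 on day 14 and from -1.99 to 0.23 on day 21, and Ccl4 from -1.60 to 0.64 and from -1.19 to 0.38. The cause was not tested. Changes of genes under about 7 CPM, the floor of the shallowest library, were not detectable at this depth.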
